A study of Mus musculus with 60 samples.

Results

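The genes described here are the axon guidance and cell adhesion families of the striatal transcriptome, chosen by name. A gene entered when its symbol began with Sema, Plxn, Epha, Ephb, Efna, Efnb, Robo, Unc5, Cntn or Cntnap, or with Slit and a digit, or was Ptprf, Ptprd, Ptprs or Reln. Of 8858 genes with a symbol (208 more had none), 63 matched this rule, and they held 1498 of 114691 exon rows. Of the 63, 61 belonged to the families by name and 2 matched by letters only, Unc50, which is not a netrin receptor, and Plxna4os2, an antisense transcript that lies within Plxna4. The 61 comprised 14 semaphorins, 9 plexins, 3 ephrins, 11 Eph receptors, 3 Slits, 2 Robos, 3 Unc5 netrin receptors, 6 contactins, 6 contactin-associated proteins, 3 LAR-type receptor phosphatases and reelin.

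Levels were measured by polyA RNA-Seq in the hand-dissected striatum of 60 heterogeneous stock-collaborative cross (HS-CC) mice, a population bred from inbred founder strains, so that each animal carries its own mixture of founder alleles. All 60 came from earlier generations bred selectively for their response to haloperidol, a dopamine receptor blocker that brings on catalepsy, a fixed posture that the animal does not correct. The labels gave 30 non-responders (13 females and 17 males) and 30 responders (15 females and 15 males), with no age, drug dose or time of dissection, and each mouse was 1 library. Recovered reads per mouse ran from 4913122 to 21872744. They fell into 43 mice with at least 12051239 reads (21 non-responders and 22 responders) and 17 mice with at most 9507322 (9 and 8), called deep and shallow mice below. Of the 17, 16 carry the consecutive numbers 41 to 56 and the other is mouse 26 (8271156 reads), and whether mice 41 to 56 were sequenced apart from the rest is not given in the sources used here. In 4 mice, mouse 63 above all, reads were shifted toward the 3′ ends of genes: the slope of log2 exon value on position from the 5′ end (0) to the 3′ end (1), as a median over 2173 genes, was 1.62 in mouse 63 (a female responder), 0.963 in mouse 5 (a female non-responder), 0.722 in mouse 4 (a male responder) and 0.498 in mouse 62 (a male non-responder), against at most 0.178 in the other 56. Of 14 listed markers of striatal projection neurons, 10 had values, and their summed level was between 66211 and 148140 in every mouse.

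Semaphorins are secreted or membrane-bound cues that turn or collapse growth cones, and plexins are their main receptors. Ephrins and Eph receptors are both bound to membranes and signal in both directions at cell contacts. Slits repel axons through Robo receptors, and Unc5 receptors convert the response to netrin into repulsion. Contactins are lipid-anchored immunoglobulin proteins that pair with contactin-associated proteins along axons and at the edges of the node of Ranvier, LAR-type receptor phosphatases organise presynaptic terminals, and reelin is a secreted glycoprotein that positions migrating neurons. In the adult striatum many of these molecules remain in use at synapses and in myelin.

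The exon rows bear on which of these genes can be read exon by exon, and the sequences that show it are printed first, from GENCODE M21 transcripts on GRCm38. The deposited exon rows are named by their start in NCBI m37, the build of the files. They were matched to M21 exons by the spacing of the starts within each gene, which placed 1449 of the 1498 rows (96.7%). In Plxnc1 17 of 31 rows were placed and the next best spacing placed 13, so its match is uncertain. Its rows stayed in the counts by exon length below. The tenth exon of Cntnap5a, Cntnap5b and Cntnap5c, 3 closely related members of the contactin-associated family, is shown because it is coding, 172 bases long and almost the same in all 3 genes. Capitals mark the 7 positions at which the sequences differ, and the other 165 are shared. They lie at chr1:116188264-116188435, chr1:100164068-100164239 and chr17:58104597-58104768, all on the plus strand.
Cntnap5a exon 10: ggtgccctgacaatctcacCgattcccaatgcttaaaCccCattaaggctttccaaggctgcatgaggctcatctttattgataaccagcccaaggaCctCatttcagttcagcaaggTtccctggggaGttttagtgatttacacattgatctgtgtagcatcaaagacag
Cntnap5b exon 10: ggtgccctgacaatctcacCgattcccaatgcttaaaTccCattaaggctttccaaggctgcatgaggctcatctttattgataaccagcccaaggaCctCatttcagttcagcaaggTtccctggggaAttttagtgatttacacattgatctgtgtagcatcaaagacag
Cntnap5c exon 10: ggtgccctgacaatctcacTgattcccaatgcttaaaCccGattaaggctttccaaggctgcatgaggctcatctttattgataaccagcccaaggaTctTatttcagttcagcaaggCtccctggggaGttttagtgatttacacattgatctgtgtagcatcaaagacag

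Cntnap5a and Cntnap5b differ from each other at 2 positions (98.8% identity) and from Cntnap5c at 5 and 7 (97.1% and 95.9%), and the longest stretch without a difference is 91 bases between Cntnap5a and Cntnap5b and 56 between Cntnap5c and either of them. In all 60 mice the row of this exon was at 0 in Cntnap5a and in Cntnap5b, whereas in Cntnap5c it averaged 4.67 (3.47 in deep and 7.71 in shallow mice). The genes themselves averaged 589 ± 181 (SD, n = 60), 456 ± 125 and 111 ± 58.8 normalized reads, so the exon was empty in the 2 genes of higher level. Whether reads shared by the copies were discarded at alignment was not tested.

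All 6 contactins carry a coding exon of 71 bases, shown because its row was nearly always empty. Capitals mark the 20 positions shared by all 6 genes. The exons lie at chr15:92302954-92303024 in Cntn1, chr1:132519169-132519239 in Cntn2, chr6:102206527-102206597 in Cntn3, chr6:106674584-106674654 in Cntn4, chr9:9706040-9706110 in Cntn5 and chr6:104838755-104838825 in Cntn6, on the minus strand in Cntn2, Cntn3 and Cntn5 and on the plus strand in the others.
Cntn1: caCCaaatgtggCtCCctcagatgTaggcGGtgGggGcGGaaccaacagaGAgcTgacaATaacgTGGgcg
Cntn2: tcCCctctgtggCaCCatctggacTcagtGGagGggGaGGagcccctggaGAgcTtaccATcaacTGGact
Cntn3: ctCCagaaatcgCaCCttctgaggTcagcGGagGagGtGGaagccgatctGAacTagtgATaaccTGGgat
Cntn4: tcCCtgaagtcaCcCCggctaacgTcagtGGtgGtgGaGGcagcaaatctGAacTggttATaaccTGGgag
Cntn5: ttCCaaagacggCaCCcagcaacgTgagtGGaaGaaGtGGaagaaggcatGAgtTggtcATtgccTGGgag
Cntn6: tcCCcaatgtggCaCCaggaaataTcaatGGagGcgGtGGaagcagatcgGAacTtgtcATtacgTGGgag

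Identity between pairs ran from 45.1% (Cntn2 and Cntn5) to 71.8% (Cntn3 and Cntn4), and no pair shared a run longer than 11 bases, so these exons are not near copies of each other as the Cntnap5 exons are. The row was at 0 in every mouse in Cntn1, Cntn3, Cntn4, Cntn5 and Cntn6 and averaged 4.38 in Cntn2, although Cntn1 was the member with the highest gene value of all, at 8366 ± 1303 normalized reads.

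The LAR-type phosphatases are known for mini-exons, very short alternative exons, some of which lie between or within the immunoglobulin domains and set which postsynaptic partner is bound. All of their coding exons under 30 bases with a row of their own are printed, wherever in the gene they lie, because exons this short tell isoforms apart. The first 3 of Ptprd are exons 8, 6 and 6 of the transcripts that carry them, whereas its 27-base and 15-base exons are exon 16 of 36 and exon 18 of 31 and the 12-base exon of Ptprs is exon 20 of 33. All are from the minus strand, at chr4:76135545-76135556 (12 bases), chr4:76138556-76138573 (18), chr4:76139294-76139302 (9), chr4:76095520-76095546 (27) and chr4:76054589-76054603 (15) in Ptprd, chr17:56421833-56421844 in Ptprs and chr4:118227819-118227845 in Ptprf.
Ptprd, 12 bases: agctgcgagaag
Ptprd, 18 bases: gtggtacaccaataagag
Ptprd, 9 bases: aatctattg
Ptprd, 27 bases: tgggaatttgatgatactactgaacat
Ptprd, 15 bases: cagtaaacctgacag
Ptprs, 12 bases: caaacctgacag
Ptprf, 27 bases: tggagaccagaggagtccgaggactat

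Their rows averaged 6.07, 5.27, 1.92, 1.25 and 0 in Ptprd in the order printed, 0 in Ptprs and 1.13 in Ptprf, in genes that averaged 4095, 5925 and 2120 normalized reads. The 15-base exon of Ptprd and the 12-base exon of Ptprs, both at 0, share a run of 11 bases, aaacctgacag. Those with values above 0 were higher in shallow than in deep mice, as in the 12-base exon of Ptprd at 3.98 in deep and 11.4 in shallow mice. The aligner used does not place a read that crosses a junction (background, given below), so these values were not taken as a measure of inclusion. With so few reads they were also not compared between groups. Which reads these rows hold was not tested.

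Over all families together, the value of a row went with the length of its exon. Row values are not divided by exon length, so a longer exon can collect more reads for its length alone. These are member rows only, and no counts by length over the exon rows of all genes stand beside them. Of 1115 rows that match a wholly coding exon, the 148 under 75 bases had a median value of 0 and 120 of them were at 0 in every mouse (81.1%). Among the 88 of 75 to 99 bases the median was 4.79 and 7 were at 0, among the 168 of 100 to 124 bases it was 11.9, among the 188 of 125 to 149 it was 17.3, among the 339 of 150 to 199 it was 25.7 and among the 184 of 200 bases and over it was 36.5. Relative to the median row of at least 150 bases of the same gene, these medians were 0, 17.2, 36, 58.2, 89.1 and 136%. Only 11 rows at 0 were 75 bases or longer, in Cntnap5a, Cntnap5b, Cntnap5c, Sema3a, Sema6c, Slit1, Slit2, Slit3 and Reln, and the longest were the 172-base exons printed above. Bowtie of the version named in the labels aligns reads without gaps, so a read that crosses a junction is not placed on the genome (background), and its part in the loss of short exons was not tested.

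**Figure D1:**
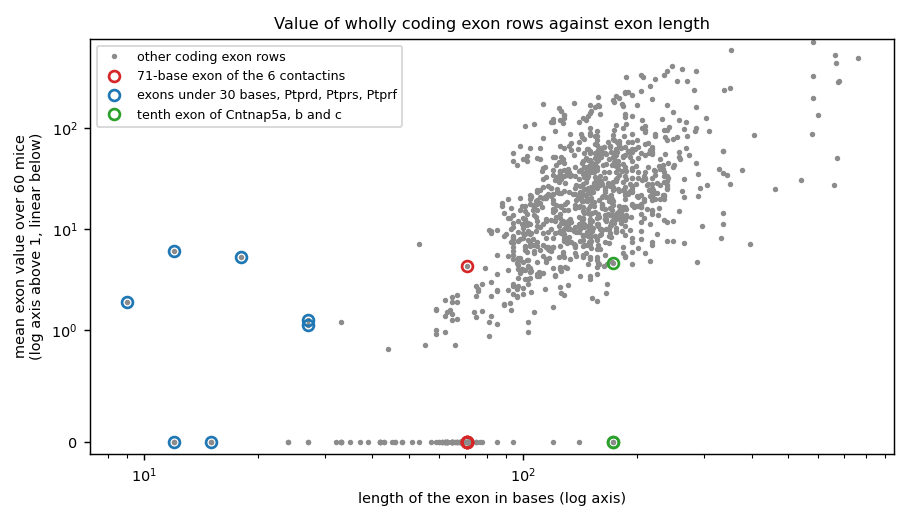
Mean value of each wholly coding exon row over 60 mice (log axis above 1) against exon length in bases (log axis), with the rows printed above ringed (contactins, LAR-type phosphatases and Cntnap5). Of the rows under 75 bases 120 of 148 are at 0, and the 172-base exon of Cntnap5a and Cntnap5b is at 0 among rows of that length that are otherwise nearly all above 1.

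Levels are compared between genes per kilobase of exon (M21 union of exons), and each value is a median over the 60 mice followed by its lowest and highest mouse. Among the semaphorins, Sema7a, a lipid-anchored semaphorin that acts through integrins, was highest at 588 (267 to 1192) normalized reads per kb, followed by the transmembrane Sema6b at 500 (375 to 621), and their ranges overlapped. The other 12 semaphorins lay at 38.1 to 162, with Sema6d at the top and Sema6c at the bottom, and the secreted class 3 members Sema3a, Sema3e and Sema3f at 49.1, 96.8 and 48.1. Of the plexins, Plxnb1, a receptor of Sema4d, was highest at 288 (195 to 393), and Plxnd1 (251), a receptor of Sema3e, Plxna2 (234) and Plxna4 (179) followed with overlapping ranges. Plxnb2, Plxnc1, Plxnb3, Plxna1 and Plxna3 had medians from 124 down to 45.1.

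The transmembrane ephrin Efnb2 had 277 (196 to 362) normalized reads per kb, above every mouse's value of the lipid-anchored Efna1 (33.7, 15 to 62.8) and Efna5 (13.5, 2.87 to 27). Among their receptors Epha4, which binds ephrins of both classes, stood highest at 546 (325 to 832), with Ephb6, whose kinase domain is inactive, at 472 (229 to 863). Epha7 (209) and Ephb1 (205) came next, then Epha6 (106), Epha5 (102), Epha10 (79.8), Ephb3 (37.7), Epha3 (23.2), Ephb4 (19.9) and Ephb2 (15). Neighbours in that order overlapped over mice, and Epha4 did not overlap with Epha7 or Ephb1 in any mouse.

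Slit3 had 102 (29.6 to 155), Slit1 85.7 (35.1 to 144) and Slit2 15 (5.09 to 34.3) normalized reads per kb, and their receptors Robo2 210 (122 to 287) and Robo1 71.5 (36.7 to 116). Per gene the Slits lay closer, with medians of 616.7, 507.3 and 380.8 normalized reads in that order. Their M21 unions are 6067, 5921 and 25433 bases. Of the netrin receptors, Unc5a had 234 (123 to 328), Unc5d 77.8 and Unc5c 44.6. Cntnap1, the axonal partner of contactins at the paranodal junction with myelin, was the highest of all members at 1101 (647 to 1495), and Cntn1, its partner there, was second at 876 (611 to 1284), with overlapping ranges. Cntn2, which holds the neighbouring juxtaparanode together with Cntnap2, had 348 and Cntnap2 278, and the remaining contactins (Cntn3, Cntn4, Cntn5, Cntn6) and contactin-associated genes (Cntnap4, Cntnap5a, Cntnap5b, Cntnap5c) lay at 24.5 to 109. Ptprs had 390 (255 to 549), Ptprf 232 and Ptprd 178, and Reln 89.2 (40 to 153). Per gene the order of Ptprf and Ptprd was reversed, with medians of 2125 and 4059 normalized reads over M21 unions of 9148 and 22822 bases. Unc50 lay at 367 and Plxna4os2 at 1.32 (0 to 36.8).

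**Figure D2:**
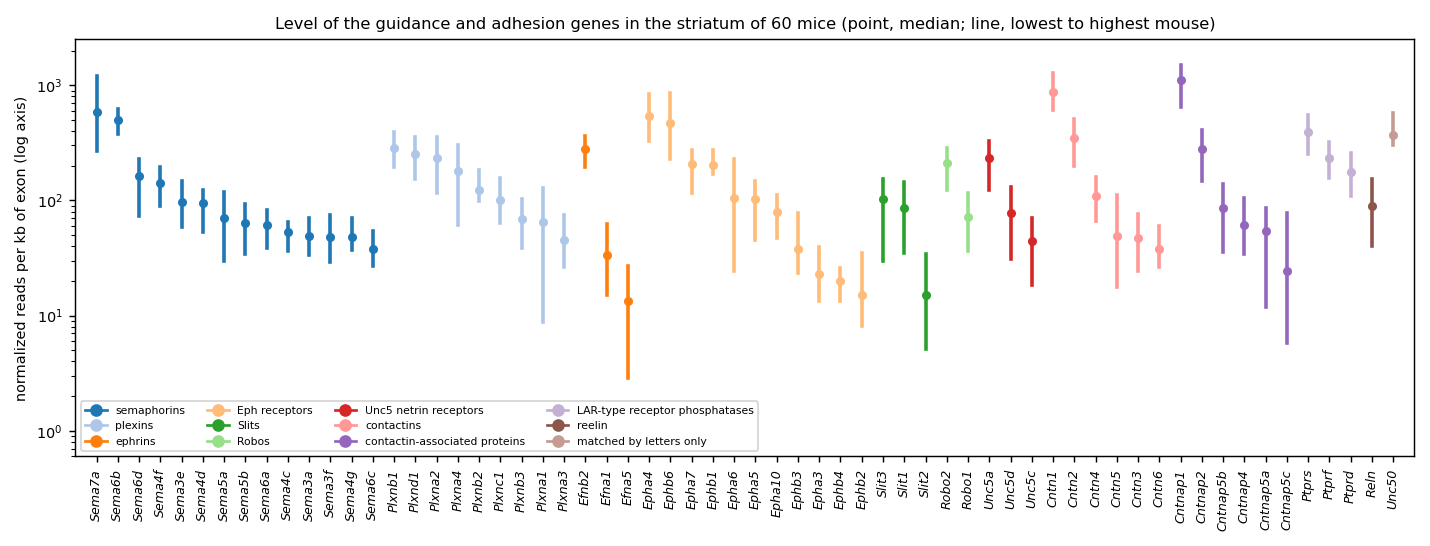
Median normalized reads per kb of exon (points, log axis) of 62 genes with the lowest and highest of 60 mice (lines), ordered by family and, within it, by level, without Plxna4os2. Cntnap1 (1101) and Cntn1 (876) stand highest and Efna5 (13.5) lowest.

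Per gene, the 63 members averaged 12.5 to 8366 normalized reads, with a median of 732 against 636 for all genes. All 63 averaged at least 10 and so entered the tests below, 42 averaged at least 500, and they had a median of 23 exon rows against 10 for all genes. The coefficient of variation (CV, SD divided by mean over 60 mice) had a median of 0.204 over members and 0.163 over the 8535 genes averaging at least 10, and 47 members lay above the latter. Ephb1 varied least (CV 0.0922, 1189 to 1936 normalized reads), then Sema6b (0.117). Among members averaging at least 500 the largest CV in each family of more than 1 such member was that of Epha6 (0.388), Plxna1 (0.357), Cntnap5a (0.308), Slit1 (0.304), Unc5d (0.288), Sema7a (0.276), Robo1 (0.229), Ptprs (0.185) and Cntn4 (0.182). Epha6 ran from 128 to 1202 normalized reads and Plxna1 from 79.2 to 1156, a 14.6-fold range. Both low ends were mouse 63, and outside the 4 mice of 3′ shift the ranges were 285 to 1202 and 313 to 1156. Cntnap5a ran from 129, also in mouse 63, to 935, and from 297 outside those 4 mice. No CV without the 4 mice is given. Reln, alone in its family, ran from 950.2 to 3640 (CV 0.297).

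No member differed between responders and non-responders past the threshold of adjusted p = 0.05 (limma on log2(value + 1), with sex as a covariate and Benjamini-Hochberg adjustment over 8535 genes). The threshold was passed by 9 of all genes tested (0.105%). At an unadjusted p under 0.05 there were 5 of 63 members (7.94%) against 554 of 8535 genes (6.49%), 1 member higher and 4 lower in responders, and edgeR and DESeq2 on recovered reads called 0 members with 5 and 6 at an unadjusted p under 0.05. The estimates were negative for 40 members and positive for 23, with a median of -0.02, against -0.0033 for all genes, and the SE of a member's estimate was 0.035 to 0.481 with a median of 0.077.

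Plxnd1 (ENSMUSG00000030123), the receptor of Sema3e, had the smallest p of the members. In responders its lowest, median and highest values were 1119, 1690 and 2594 normalized reads, and in non-responders 1377, 1959 and 2315. The groups overlapped over most of their range. The log2 difference, responder minus non-responder, was -0.19 ± 0.057 (SE, limma, adjusted p = 0.217), or 1701 ± 324 against 1936 ± 242 normalized reads (SD, n = 30 each).

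Cntn3, a contactin expressed in subsets of neurons, had 164.5, 285 and 459 normalized reads in responders and 192, 354 and 518 in non-responders. The groups again overlapped, and the log2 difference was -0.28 ± 0.089 (limma, adjusted p = 0.279). Efna1 had 37.4, 69.7 and 115 normalized reads in responders and 27.5, 56 and 88.8 in non-responders, and it was the only one of the 5 with a positive estimate, 0.26 ± 0.092 (limma, adjusted p = 0.378). Its highest value was that of mouse 63.

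Plxnb1 (log2 difference -0.13 ± 0.048) and Sema6b (-0.10 ± 0.043) had limma adjusted p-values of 0.438 and 0.575. The ligand of each of these plexins did not pass the threshold either, with estimates of -0.02 for Sema3e and -0.07 for Sema4d. The summed level of 3 cortical neuron markers (Tbr1, Cux2 and Rorb, of 10 listed) was 1394 to 5818 with a median of 3059 in responders and 1729 to 6538 with a median of 3703 in non-responders, and that of 6 oligodendrocyte markers (of 8 listed) 97692 to 269550 with a median of 153535 and 92015 to 248698 with a median of 147757. Their part in the differences above was not tested. Of 85 listed partners outside the families, such as neuropilins, netrins and the cytoplasmic effectors of these receptors, 65 had values, 0 passed the threshold and 3 had an unadjusted p under 0.05, with Mical3 the smallest (limma, adjusted p = 0.329).

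**Figure D3:**
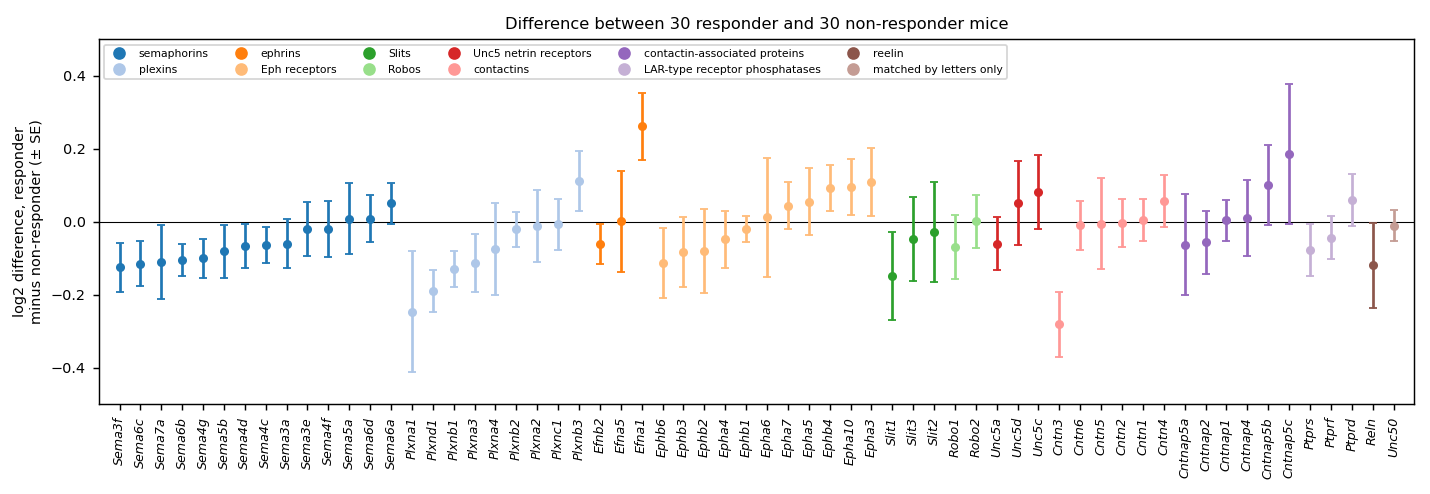
Log2 difference of 30 responders minus 30 non-responders (points) with its SE (bars) for 62 members ordered by family, without Plxna4os2, whose SE was 0.481. Cntn3 (-0.28) and Efna1 (0.26) lie farthest from 0, and none passed an adjusted p of 0.05.

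Between 28 females and 32 males, 0 members passed the same threshold against 3 of 8535 genes (0.0351%), and 2 members had an unadjusted p under 0.05 (2.04% of all genes did), with 1 member by edgeR and 1 by DESeq2. These were Plxnd1, at 1119, 1738 and 2332 normalized reads (lowest, median and highest) in females and 1307, 1924 and 2594 in males (log2 difference, female minus male, -0.15 ± 0.057), and Cntn3, at 222, 322 and 518 in females and 164.5, 311 and 478.5 in males (0.19 ± 0.09). Next in order was Sema3e (0.14 ± 0.075), and all 3 had a limma adjusted p of 1. The sexes overlapped for each of them. The phenotype by sex interaction was passed by 0 of 8535 genes (0%), with 48 genes and 0 members at an unadjusted p under 0.05 by limma and 0 members by edgeR and DESeq2. The smallest p was that of Sema4g, whose difference between phenotypes was 0.20 ± 0.10 log2 units more positive in females, then Sema6b (0.11 ± 0.087) and Efna5 (-0.36 ± 0.28), each with a limma adjusted p of 1.

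Variation over mice went with the summed markers of other cells. Pearson and Spearman correlations of log2 values were computed for the 63 members with the summed cortical, oligodendrocyte and striatal neuron markers, 189 relations in all, each with a permutation p from 100000 permutations (two-sided, smallest possible 1e-05) and adjusted over the 25605 relations of all 8535 genes averaging at least 10. With the cortical markers 35 members (55.6%) correlated positively and 3 (4.76%) negatively at an adjusted p under 0.05, against 25.8% and 24.6% of all genes, and the median r of members was 0.32 against 0.00 for all genes. With the oligodendrocyte markers 3 (4.76%) correlated positively and 49 (77.8%) negatively, against 29.7% and 35.8% of all genes, and the median r was -0.51 against -0.07. With the striatal neuron markers 4 (6.35%) correlated positively and 11 (17.5%) negatively, against 14.3% and 10.5% of all genes, with medians of -0.09 and 0.03. Without the 4 mice of 3′ shift the balance with the striatal markers turned, to 10 positive and 3 negative with a median of 0.05, as Slit3 went from r = 0.14 to 0.52, Robo1 from 0.24 to 0.53, Cntnap2 from 0.19 to 0.46 and Reln from 0.19 to 0.45, and Plxna4 and Epha5 from -0.31 and -0.30 to -0.10 each. The other counts were then 29 and 4 with the cortical and 3 and 43 with the oligodendrocyte markers. In dissected tissue, fewer cells of a type and less RNA per cell cannot be told apart.

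Ephb3, an Eph receptor of class B, rose most closely with the cortical markers (r = 0.81, rho = 0.81, both permutation p = 1e-05, adjusted 7.03e-05 and 7.52e-05). Its r was 0.80 without the 2 mice farthest from the median of the markers, 0.75 in deep and 0.94 in shallow mice, and it was also the member that fell most with the striatal neuron markers (r = -0.61, rho = -0.61). Sema7a (r = 0.78, 0.76 in deep and 0.92 in shallow mice), Slit2 (0.77, 0.81 and 0.67), Unc5a (0.75, 0.71 and 0.88) and Ephb6 (0.70, 0.69 and 0.77) followed, at the same p. The 3 members with a negative adjusted result were Sema3f (r = -0.47, rho = -0.44), Plxnb2 (-0.39, -0.34) and Unc50 (-0.30, -0.19), of which Unc50 did not pass by rho (permutation adjusted p = 0.227) and had r = -0.11 without the 4 mice. Sema3f, a secreted semaphorin that acts through neuropilin-2, rose most with the striatal neuron markers (r = 0.63, rho = 0.60, permutation p = 1e-05, 0.60 without the 2 farthest mice, 0.69 in deep and 0.51 in shallow mice), followed by Efnb2 (0.50, rho 0.44), Ephb1 (0.40) and Sema3e (0.35).

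Ptprs fell most closely with the oligodendrocyte markers (r = -0.82, rho = -0.78, both permutation p = 1e-05, adjusted 7.03e-05 and 7.52e-05), with -0.80 without the 2 farthest mice, -0.82 in deep and -0.71 in shallow mice. Epha5 (-0.79, with -0.78 in deep and -0.75 in shallow mice), Plxna4 (-0.78, -0.80 and -0.61) and Plxna2 (-0.75, -0.75 and -0.61) were next. The 3 that rose with the oligodendrocyte markers were Unc50 (r = 0.47), Efna1 (0.39, but 0.08 in shallow mice and 0.28 without the 4 mice of 3′ shift, adjusted p = 0.0814) and Plxnb3 (0.31, rho 0.34, permutation p = 0.0162 and adjusted 0.0367), a plexin known from oligodendrocytes that had r = 0.48 in deep and 0.49 in shallow mice. Cntn3, of the members with an unadjusted phenotype p under 0.05, had r = 0.44 with the cortical and -0.67 with the oligodendrocyte markers, and Plxnd1 0.25 and -0.28.

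**Figure D4:**
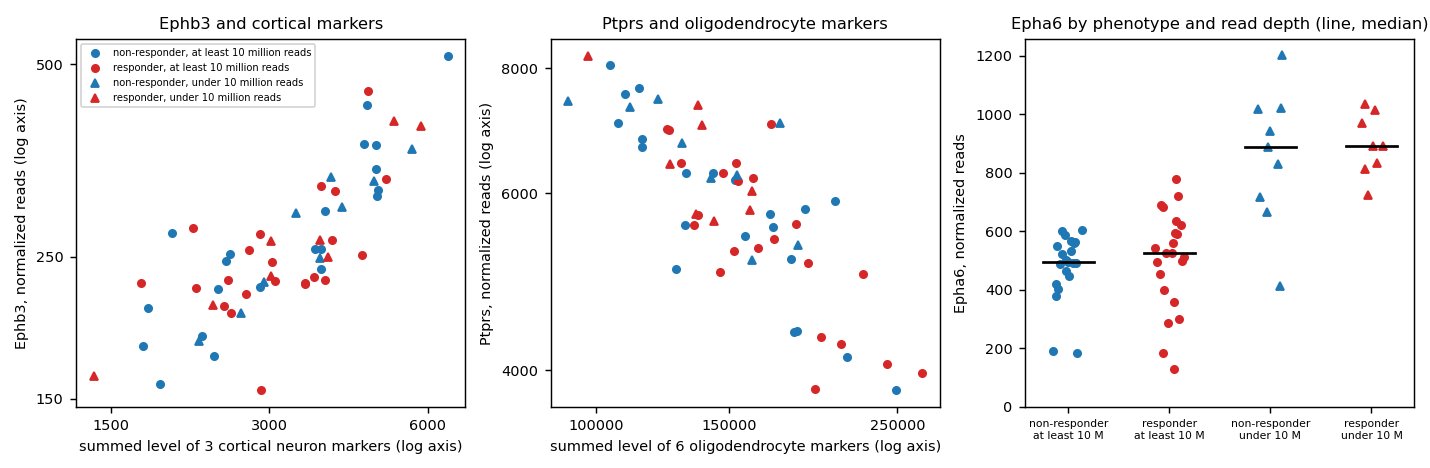
Left and middle, each point is a mouse and axes are log: Ephb3 against the summed level of 3 cortical neuron markers (r = 0.81) and Ptprs against that of 6 oligodendrocyte markers (r = -0.82), in normalized reads. Right, Epha6 in normalized reads by phenotype and read depth with medians as lines, where the shallow medians lie above the deep ones in both phenotypes and the shallow non-responder at 413 is mouse 26.

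Members of different families also moved together. Of 1605 pairs from different families, 1347 had a positive r of log2 values over the 60 mice (median 0.36), and 941 positive and 67 negative pairs had a permutation p under 0.05 after adjustment over the 1605. The smallest r so called was 0.28 in size, and 58.6% of the pairs lay at or above it and 4.17% at or below -0.28, against 27.7% and 27.2% of all pairs of genes averaging at least 10 (50.1% with a positive r, median 0.00). Without the 4 mice of 3′ shift the shares were 51.2% and 5.3% of member pairs against 21.8% and 20.5% of all pairs. The 5 highest were Cntnap5a and Epha6 (r = 0.91, rho = 0.85), Slit3 and Reln (0.91, 0.89), Plxna2 and Reln (0.89, 0.88), Ptprs and Slit1 (0.89, 0.88) and Plxna2 and Slit3 (0.88, 0.82), all with permutation p = 1e-05 and adjusted p of 3.61e-05 for r and 4.56e-05 for rho. Without the 2 mice farthest from the median of the gene named first they were 0.87, 0.91, 0.86, 0.86 and 0.87, in deep mice 0.91, 0.91, 0.86, 0.89 and 0.89 and in shallow mice 0.71, 0.77, 0.86, 0.79 and 0.63. The 3 most negative were Epha6 and Efna1 (r = -0.58, rho = -0.48), Sema4f and Plxnb1 (-0.56, -0.56) and Cntn1 and Ephb4 (-0.56, -0.53). Of these, Epha6 and Efna1 had r = -0.57 in deep but -0.12 in shallow mice, while the others had -0.56 and -0.47 in deep and -0.66 in shallow mice in both pairs. Slit3 is a ligand of Robos and Reln of lipoprotein receptors, so none of the 5 highest pairs is a ligand with its own receptor.

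Mice 41 to 56 stood apart from the other 44 in Plxna4os2 alone, a gene matched by letters only. In the other members named here the shallow and deep mice differed in median but overlapped. Plxna4os2 had 0, 1.69 and 8.33 normalized reads (lowest, median and highest) in deep mice and 1.58, 38.8 and 75.3 in shallow mice, a 22.9-fold difference of medians. The 1.58 was mouse 26, and mice 41 to 56 had 16.1 to 75.3 with a median of 39.5, above all 44 other mice. In this gene mouse 26 lay with the deep mice and not with the other shallow ones. Epha6 had 128, 512.5 and 779 in deep and 413, 891 and 1202 in shallow mice (1.74-fold), Cntnap5c 22.7, 82.1 and 242 against 91.7, 151 and 307 (1.84-fold), and Cntn5 80.1, 197 and 311 against 205, 328 and 506 (1.66-fold). In the other direction Efna1 had 43.5, 65.1 and 115 in deep and 27.5, 48.9 and 81.1 in shallow mice (0.752-fold). Mouse 26 had 413 in Epha6, 124.5 in Cntnap5c, 271 in Cntn5 and 47.3 in Efna1, within the range of the deep mice in each. In Cntnap5c, Cntn5 and Efna1 it lay within the range of mice 41 to 56 too, and in Epha6 below theirs (664 to 1202). Mice 41 to 56 were 8 responders and 8 non-responders, and their slope of exon value on position was -0.285 to -0.147, against -0.0118 in mouse 26 and at least -0.158 in the other 44. Plxna4os2 was the only member in which mice 41 to 56 did not overlap with the other 44 (1.45% of genes averaging at least 10 did not). Of the members, 12 had a shallow median over 1.25 times the deep median (11.4% of genes averaging at least 10 did), 15 without mouse 26 (11.9%), and the median ratio was 1.12 over members and 0.984 over all such genes.

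Over members, apart from Plxna4os2, the median ratio was higher only for genes spanning 300 kb and over, and the ranges overlapped. The 25 spanning under 100 kb had a median ratio of 1.08 (0.752 to 1.29), the 12 of 100 to 300 kb 1.08 (0.931 to 1.43) and the 25 of 300 kb and over 1.19 (1.01 to 1.84). Epha6, Cntnap5c and Cntn5 span 952049, 640786 and 1243885 bases. This is a description across genes, which are not independent and share the same libraries. No values by span for all genes stand beside it.

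Among member exon rows averaging at least 10, the largest ratios of shallow to deep mean were at non-coding rows of Plxna2 (12.2) and Ptprd (9.58). A partly coding row of Slit3 averaging 6.42 had a larger ratio (23.8). Of rows averaging at least 10, the 697 wholly coding ones had a median ratio of shallow to deep mean of 1.20, and 8 exceeded 2. The 175 partly coding ones, which hold untranslated sequence too, had a median of 1.14 and 7 exceeded 2, and the 23 non-coding ones had a median of 1.46, up to 12.2, and 5 exceeded 2. These are member rows only. No ratio over all exon rows stands beside them, so whether the families differ in it from other genes cannot be told. The row of Plxna2 at m37 position 196482531, which matches a non-coding exon of 3676 bases found in 1 of 5 transcripts, averaged 7.42 (1 to 30) in deep and 90.8 (11 to 149) in shallow mice, where mouse 26 had the 11 and mice 41 to 56 at least 58. A row of Ptprd at 76237229, a non-coding exon of 2981 bases in 1 of 22 transcripts, averaged 5.67 (1 to 14) and 54.4 (11 to 110), again with the 11 in mouse 26. Among rows of lower value, a partly coding row of Slit3 at 35048339 averaged 0.861 and 20.5, and a non-coding row of Plxna4os2 at 32402980 averaged 1.65 and 28.5, and in both mouse 26 was at 0 and mice 41 to 56 lay above every other mouse. Since the kit does not mark strand, reads of Plxna4os2 and unspliced reads of Plxna4, within which it lies, cannot be told apart. Whether precursor RNA or genomic DNA differed between mice 41 to 56 and the others was not tested.

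The 4 mice of 3′ shift stood apart in the level of some members. In mouse 63, 24 of the 63 members had their lowest value of all mice (22.6% of genes averaging at least 10 did) and 2, Unc50 and Efna1, their highest (24.8%). Plxna1 had 79.2, 156, 171 and 224 normalized reads in mice 63, 5, 4 and 62 and 313 to 1156 with a median of 592 in the other 56, so all 4 lay below every other mouse. The same was true of Cntnap5a (129, 206, 212 and 291 against at least 297) and Epha6 (128, 183, 184 and 190 against at least 285). Plxna4 had 854, 987, 1088 and 1031 against at least 1326. All 4 mice also lay below the other 56 in Plxna2, Ptprd, Ptprf, Unc5c, Unc5d, Sema5a and Cntnap5b. In Ptprd they had at most 2776 against at least 2814. The share of all genes in which the 4 mice lay apart in this way is not given. Sema6b, at 1963, 2209, 2121 and 2096 against 1490 to 2466, and Ephb1 did not stand apart. Of the 4 mice 2 were responders and 2 non-responders.

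Exon usage was measured as the share of a gene's summed exon value that fell on a row. By phenotype, 0 of 915 member rows in 60 genes passed an adjusted p of 0.05, against 14 of 66690 rows (0.021%), and 46 member rows (5.03%) had an unadjusted p under 0.05 against 4.81% of all rows, with limma. With limma's diffSplice 0 member rows passed and 11 of 915 had an unadjusted p under 0.05, against 1668 of 66690 rows. The smallest p-values were those of a 144-base coding row of Slit3 (row 19 of 37 from the 5′ end), with a share of 2.13% ± 0.991 (SD, n = 30) in responders and 2.92% ± 0.72 in non-responders (log2 difference -0.49 ± 0.14, limma adjusted p = 0.407), a 194-base row of Epha10 (4.23% ± 0.742 and 5.07% ± 0.908, adjusted p = 0.415) and a 351-base row of Ephb3 (9.63% ± 1.8 and 11.5% ± 2, adjusted p = 0.422). These differences are smaller than or close to the SD between mice. By sex, 0 of 66690 rows passed (0%), 24 member rows (2.62%) had an unadjusted p under 0.05 against 2.64% of all rows, diffSplice gave 0 passing member rows and 2 with an unadjusted p under 0.05 against 954 of all rows, and the smallest p-values were in Cntn3, Epha6 and Ptprd (rows 22, 4 and 54, limma adjusted p = 1).

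The rows of most variable share, among those averaging at least 100, were rows 1 or 2 from the 5′ end in 7 of 8 cases and row 34 of 55 in Ptprd, and the mice with the 3′ shift were low in them. Row 2 of 31 of Plxna4 held 1.05, 1.72, 3.12 and 3.78% of the gene's exon sum in mice 63, 5, 4 and 62 and 7.17 to 16.2% with a median of 9.92% in the other 56. Row 1 of Slit2 held 3.17, 12, 14.3 and 15.9% against 17 to 41.8%. Rows 1 and 2 of Plxna2, rows 1 and 2 of Robo2, row 1 of Cntnap2 and row 34 of Ptprd were the others of the 8, and in mouse 63 each was below every one of the 56. None of the 8 differed by phenotype (limma adjusted p = 1 for each).

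Outside those 4 mice, and chosen after the values were seen, the row averaging at least 50 with the most variable share was row 20 of 33 of Ptprf. It matches a coding exon of 219 bases at chr4:118223718-118223936 (minus strand), found in 3 of 7 transcripts and printed because its share varied most.
Ptprf, 219 bases: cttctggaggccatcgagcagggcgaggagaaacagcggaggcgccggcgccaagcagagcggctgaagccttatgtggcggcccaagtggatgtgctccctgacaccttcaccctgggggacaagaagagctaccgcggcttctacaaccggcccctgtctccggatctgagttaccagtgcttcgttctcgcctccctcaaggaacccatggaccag

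Its share of the Ptprf exon sum was 0.712 to 4.48% with a median of 3.3% in the 56 mice, and mice 63, 5, 4 and 62 had 1.94, 2.12, 2.31 and 3.17%. In responders the lowest, median and highest shares were 1.86, 3.38 and 4.48% and in non-responders 0.712, 2.88 and 4.39%. The low end was held by non-responders, but the groups overlapped above it and the log2 difference of 0.33 ± 0.13 had a limma adjusted p of 0.822 (unadjusted 0.0119). The next rows were row 30 of Ptprd and row 1 of Plxna4, both with shallow means over 2 times the deep means, row 3 of Epha10, row 2 of Robo2 and row 17 of Cntnap2, a coding exon of 219 bases with shares of 1.16 to 3.55% in the 56 mice.

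Connectivity of the members was then measured in the 3 kinds of network that the study builds from these libraries. In each, connectivity is the sum over all other genes of the absolute correlation raised to the power of 6. It is given here as a percentile among all genes with a jackknife SE over 10 groups of 6 mice. The 4 mice of 3′ shift fall in different groups, so the SE does not cover their joint effect on a percentile. The coexpression network correlates gene values, the cosplicing network compares distances between mice in the proportions of exon values (cosine distance), and the CoSplicEx network uses a distance that also takes up level (Canberra). By construction 10% of all genes lie at or above a percentile of 90. There the members numbered 5 of 63 in coexpression, 13 in cosplicing and 15 in CoSplicEx, with median percentiles of 57.9, 69.4 and 76.4. Without the 4 mice of 3′ shift the count in cosplicing was 21, and among genes averaging at least 500, where 42 members remained, that in CoSplicEx was 8. The counts are descriptions without a test, since members share mice and resemble each other in exon number.

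In coexpression the highest were the plexins Plxna4 (97.5 ± 1.39) and Plxna2 (97.2 ± 1.97), then Ptprs (94.1 ± 3.04), Slit3 (92.2 ± 2.38) and Epha6 (90 ± 2.28). The lowest were Sema3a (0.2 ± 0.396), Plxnd1 (1.2 ± 1.75) and Sema5b (1.3 ± 2.44). Epha6 fell to 77.6 in deep mice alone, and Plxna4os2 from 86.6 to 7.7. Without the 4 mice of 3′ shift Plxna4os2 was the highest member in coexpression at 99.1, Sema4f lay at 95.9 (from 74.8) and Slit3 at 86.4. Plxna4, Plxna2, Ptprs and Epha6 then lay at 95.7, 96.3, 97.3 and 90. In cosplicing the highest were Ptprs (99.7 ± 0.288), Epha5 (97.4 ± 3.11), Cntn1 (97.1 ± 1.49), Ptprf (96.9 ± 2.37) and Epha4 (96.3 ± 2.94). Without the 4 mice of 3′ shift, Ptprs and Epha5 lay at 85.7 and 81.5 while Cntn1, Ptprf and Epha4 lay at 96.3, 95.1 and 95.9. Cntnap1 (93.4) and Ephb6 (95) fell farther, to 49.1 and 58.1. Other members rose, and the highest in cosplicing without the 4 mice were Plxna2 (99.8, from 73), Ptprd (99.7, from 77), Plxna4 (99.6, from 69.1), Reln (98.6, from 75.8) and Unc5c (98.5, from 61.1).

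In CoSplicEx the highest were Ptprf (97 ± 1.42), Cntn2 (96.9 ± 2.3), Plxna4 (96.8 ± 1.65), Sema6d (96.6 ± 2) and Plxna2 (95.5 ± 2.82), and the lowest member was Efna1 (5.3 ± 3.41). Efna1 lay at 12.9 without the 4 mice, where Efna5 (6.6) and Cntnap1 (12.4, from 89) were lower, and at 3.7 in deep mice, where Plxna4os2 (1.8) was lower. Without the 4 mice Plxna4 and Plxna2 lay at 98.9 and 99.3, and Ptprf, Cntn2 and Sema6d at 81.8, 86.3 and 81.2. With all 60 mice the 3 LAR-type phosphatases were above 90 in CoSplicEx (Ptprd 95.3 and Ptprs 92.6). Robo2 stood at 91.4 and Robo1 at 90, and at 89.5 and 89 without mouse 63. Plxnd1, next to lowest in coexpression, stood at 93.8 in cosplicing, and at 80.9 there without the 4 mice.

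**Figure D5:**
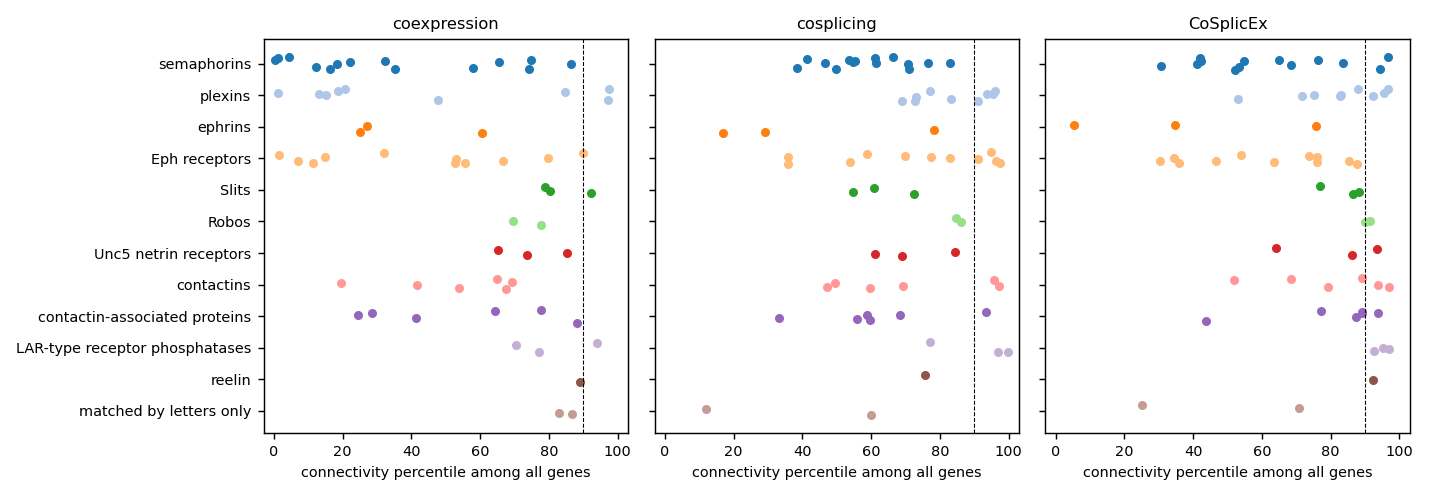
Connectivity percentile among all genes of each of the 63 genes (points) by family in the coexpression, cosplicing and CoSplicEx networks, with the percentile of 90 dashed. Semaphorins run from 0.2 to 86.5 in coexpression, and the 3 LAR-type phosphatases lie above 90 in CoSplicEx with all mice.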

How the data were processed

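PolyA RNA-Seq of striatum from 60 mice was used. Per the labels and the study's methods, the authors aligned reads with Bowtie 0.12.7 to NCBI m37 (mm9), summarised them on Ensembl 59 union exons and applied edgeR 3.4.2 upper quartile factors. As deposited, gene values are a signal, read counts multiplied by a factor per library, from which whole reads were recovered (largest deviation 6.53e-05 reads). Exon values, as deposited, are a score, such products rounded to whole numbers. Errors rest on differences among mice, each of which is 1 library, and nothing in the labels says how mice were related.

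Gene tests used limma 3.58.1 (trend) in R 4.3.3 on log2(value + 1), with sex and phenotype as terms, for genes with a mean of 10 or more, and exon tests the log2 share of rows averaging at least 10 in genes with at least 2 such rows. Alternatives used edgeR 4.0.16 and DESeq2 1.42.0 on recovered reads, diffSplice, other filters, pseudocounts, covariates and mouse sets. Scripts were tested on simulated data. Networks, permutation tests and figures used Python 3.11.15, numpy 2.4.6, pandas 2.3.3, scipy 1.17.1 and matplotlib 3.10.9. Symbols came from GENCODE M21, which held 8858 identifiers (97.7%). The files' m37 starts were not converted: coordinates of genes and exons are M21's own on GRCm38. Named were members past the threshold or the 3 of smallest p, the highest per length and most variable of each family, the 5 most connected per network, 8 exon rows of most variable share, and the 5 highest and 3 lowest pairs. The members, lists and rules were chosen with earlier results of these data known. An item of the cortical marker list is not reported here and was kept out of the summed level.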

Additional observations from a re-analysis of the deposited data

How the results depend on the processing

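No member gene passed an adjusted p of 0.05 for phenotype, sex or their interaction, and no member exon row for phenotype or sex, under any alternative run, and the 178 values of single named genes and rows under alternatives kept their direction. Over all genes, the 9 phenotype calls became 61 with the 3′ shift as a covariate, 23 with DESeq2, 20 with the depth class as a covariate, 3 in deep mice, 5 among genes averaging at least 500 and 0 in shallow mice, in females or in males alone. The 3 sex calls became 0 in deep and 1 in shallow mice. Of all exon rows the 14 phenotype calls became 88 with diffSplice, 41 with the 3′ shift as a covariate, 28 without the 4 mice of 3′ shift and 8 in deep mice, and the 0 sex calls became 6 with diffSplice. The cause was not tested.

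The median member percentile in CoSplicEx (76.4) moved to 80 without mouse 63 and 79.5 among genes averaging at least 500, that in coexpression (57.9) to 66.6 among those genes and 63.8 on log2(value + 1), and that in cosplicing (69.4) to 62 among those genes and 83 without the 4 mice. Members in the top 10% went from 15 to 8 in CoSplicEx among genes averaging at least 500, where 42 members remained, from 5 to 8 in coexpression on log2(value + 1) and to 7 without mouse 63 or without the 4 mice, and from 13 to 21 in cosplicing without the 4 mice. Members correlating with the striatal markers went from 4 positive and 11 negative to 10 and 3 without the 4 mice. Leaving out the 4 mice, or mouse 26, was an alternative chosen after seeing the data. The median CV of members was 0.197 from library-scaled reads and 0.205 in deep mice. No paired analysis was possible because the replicate numbers follow the order of deposit and tie no mice together.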
